A study of Mus musculus with 4 samples.

Results

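The genes described here make prostaglandins or receive them. They are the cyclooxygenases Ptgs1 and Ptgs2, the terminal synthases Ptges, Ptges2, Ptges3 and Ptgis, and the receptors Ptger1, Ptger2, Ptger4 and Ptgfr. Of these 10 genes, 8 are among the 18193 genes that have a probe set of their own in the platform annotation. The list was chosen by gene name, with the Ptgs2 levels of these same arrays already known, so the Ptgs2 differences below are a description and no test was made on them. All probe sets (groups of short probes against 1 transcript) annotated to a single symbol were taken, 17 in all for 8 of the genes, and the probe set with the highest mean stood for its gene. For Ptgs1 no probe set is listed in the annotation used here and its level was not analysed here. Ptges3 is named only on probe sets shared with its pseudogene.

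The cells were SVEC4-10, an endothelial line from mouse lymph node vessels transformed with SV40. On the first array the cells carried a lentiviral vector (pLENTI6/Block-iT) expressing a short hairpin RNA against Mical2, and on the second array the same backbone with a hairpin against Mical3. The MICAL proteins are monooxygenases that oxidise actin filaments. The vector array held cells with that lentivirus free of any insert, all 3 transduced populations having been selected with blasticidin, and the untreated array held wild-type cells. There was 1 array per group, each from a pool of 3 biological replicates. Their spread is therefore hidden, no p-value is given, and the number of arrays limits the precision. Each transduced group had a single hairpin or none, so the effect of a hairpin sequence and that of its target cannot be told apart.

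Prostaglandins are short-lived lipid signals made from arachidonic acid, which phospholipases cut from membranes. A cyclooxygenase turns it into an unstable intermediate, and a terminal synthase then makes the individual prostaglandin. Endothelial cells are known for prostacyclin, which widens vessels and restrains platelets, and Ptgs2 is the inducible cyclooxygenase of inflamed and growing vessels. The receptors are G protein-coupled receptors that act through cyclic AMP or calcium in the receiving cell.

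Ptgs2 differed most among the measured members, and the receptor gene Ptger4 came next. Both stood highest on the array labelled Mical2, next highest on the untreated array, and lower on the remaining arrays, the vector array and that labelled Mical3. Their promoters are shown here because these members moved in part together. The windows run from 250 bases before the annotated start to 50 after it, are taken from RefSeq on GRCm38.p6, and are written 5′ to 3′ along the gene's strand. Promoter windows were found for 8 of the 10 genes. Capitals mark matches, on either strand, to the letters of the cAMP response element core (TGACG), the E-box (CACGTG), the TATA box (TATAAA), the AP-1 site (TGANTCA), the GC box (GGGCGG), the NF-kB site and the interferon-stimulated response element core. Matches to different motifs may share letters.
Ptgs2, chr1:150099781-150100080, plus strand: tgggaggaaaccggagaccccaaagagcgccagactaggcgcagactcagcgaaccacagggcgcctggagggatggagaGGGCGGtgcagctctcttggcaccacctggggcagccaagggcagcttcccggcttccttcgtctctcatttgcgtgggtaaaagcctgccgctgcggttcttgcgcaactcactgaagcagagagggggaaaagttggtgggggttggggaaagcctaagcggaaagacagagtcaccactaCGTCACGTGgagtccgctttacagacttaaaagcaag
Ptger4, chr15:5244138-5244437, minus strand: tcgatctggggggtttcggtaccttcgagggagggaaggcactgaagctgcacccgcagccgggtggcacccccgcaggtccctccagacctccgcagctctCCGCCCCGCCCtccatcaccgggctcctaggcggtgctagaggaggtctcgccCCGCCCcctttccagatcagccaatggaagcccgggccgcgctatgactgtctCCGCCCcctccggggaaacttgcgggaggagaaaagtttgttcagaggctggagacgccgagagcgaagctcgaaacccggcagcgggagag

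In the Ptgs2 window the TGACG letters lay on the minus strand from position 14 after the start and shared letters with an E-box from position 17, which together read CGTCACGTG. A GC box lay at position -170. Of the 32851 promoter windows in the RefSeq table, 20.8% held TGACG, 7.15% an E-box and 35.7% a GC box. The Ptger4 window held 4 GC boxes, at -148, -143, -95 and -42, and neither of the other motifs that Ptgs2 held. The letters of the TATA box, the AP-1 site, the NF-kB site and the interferon-stimulated response element core were in neither window (13.6%, 7.81%, 20.7% and 3.44% of all windows held them). Positions count from the annotated start, and where transcription starts in these cells was not examined. A match of letters is a description of the sequence only.

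The values below are log2 levels as deposited after RMA, a method that corrects background, makes the arrays' distributions alike and summarises each probe set. A difference of 1 is 2-fold. A gene was called higher or lower by size alone, when it differed by at least 1 and the highest of the compared levels reached 5.41, the median of the whole table and the floor used here. For a hairpin array both control arrays had to be passed, in 1 direction. The standard deviation between 2 probe sets of the same gene, over 5198 genes, lay between 0.25 and 0.38 for the 6 differences between arrays, and measures the disagreement of probe sets only. It holds no spread between cultures.

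The labels and the cell type were checked first. Mical2 read 5.53 and 5.53 by its 2 probe sets on the array labelled Mical2, with 6.0 and 6.08 on that labelled Mical3, 4.64 and 5.14 in vector cells, and 5.33 and 5.60 in untreated cells. Mical3 read 7.24 on the array labelled Mical3, with 7.29 and 7.39 on the same controls, and was lowest, at 6.83, on the array labelled Mical2. On its own array Mical2 was higher than in vector cells by both probe sets. Against untreated cells it was higher by the first and lower by the second. Its control levels lay close to the floor or below it, where RMA compresses differences, so a 2-fold drop could be missed. Neither target was lower by 2-fold on its own array, so both hairpin arrays are named here by their labels. Of 14 endothelial markers Flt1, Eng, Egfl7, Kdr and Esam reached the floor on some array, and Pecam1, Cdh5, Tek, Tie1, Emcn and Vwf stayed below it on all 4. Of 8 fibroblast markers 6 reached the floor, including Dcn, Col1a1 and Col1a2. The summed linear signal of the fibroblast markers was 14.85 in log2 units on the array labelled Mical2, 13.27 on that labelled Mical3, 12.79 in vector cells and 15.27 in untreated cells. That of the endothelial markers lay between 9.71 and 9.74. On whole cultures, fewer cells of a type and less RNA per cell cannot be told apart.

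Ptgs2, the inducible cyclooxygenase, stood at 10.17 on the array labelled Mical2, 5.72 on the array labelled Mical3, 7.82 in vector cells and 9.15 in untreated cells. The array labelled Mical2 was the high one and the array labelled Mical3 lay just above the floor. Its second probe set, dimmer throughout, read 6.32, 4.0, 4.51 and 4.73 in the same order. The order of the 4 arrays was the same by both probe sets, and on the second only the array labelled Mical2 reached the floor.

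Against the controls, the Ptgs2 level on the array labelled Mical2 was 5.10-fold that of the vector array and 2.03-fold that of the untreated array. The second of these, a log2 difference of 1.02, passed the size rule by a narrow margin. The second probe set was below the floor in both controls. Ptgs2 was the 1 member called of the 6 tested on this array. Over all genes tested, 2.73% were called there in either direction and 0.977% as higher, and 114 of 12072 genes were higher than both controls by at least as much as Ptgs2 (0.944%).

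On the array labelled Mical3 the difference ran the other way. Ptgs2 was at 0.233 times the vector level and 0.0928 times the untreated level, log2 differences of -2.10 and -3.43. The second probe set, near background, gave -0.51 and -0.73, below 2-fold. Of the 6 members tested Ptgs2 was again the 1 called, where 3.87% of all genes were called and 2.49% as lower, and 69 of 12011 genes were lower by at least as much (0.574%).

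The vector array itself was lower in Ptgs2 than the untreated array, by a log2 difference of -1.33, or 0.398 times the untreated level. The second probe set differed by only -0.22, and the mean of both gave -0.78, which the size rule does not call. Of the 6 members only Ptgs2 was called on the main probe set, with 5.83% of all genes called and 2.57% as lower. The comparisons of the hairpin arrays with the controls share the vector and the untreated array, so a low Ptgs2 level in vector cells enters both.

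Set against each other, the hairpin arrays share no control. Ptgs2 on the array labelled Mical2 was 21.9-fold that of the array labelled Mical3 by its main probe set (a log2 difference of 4.45) and 4.99-fold by the other (2.32). Of 11928 genes tested, 16 differed in that direction by at least as much (0.134%). Ptgs2 and Ptger4 were the 2 members called of 6, both higher, where 7.53% of all genes were called in either direction and 3.81% as higher.

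**Figure D1:**
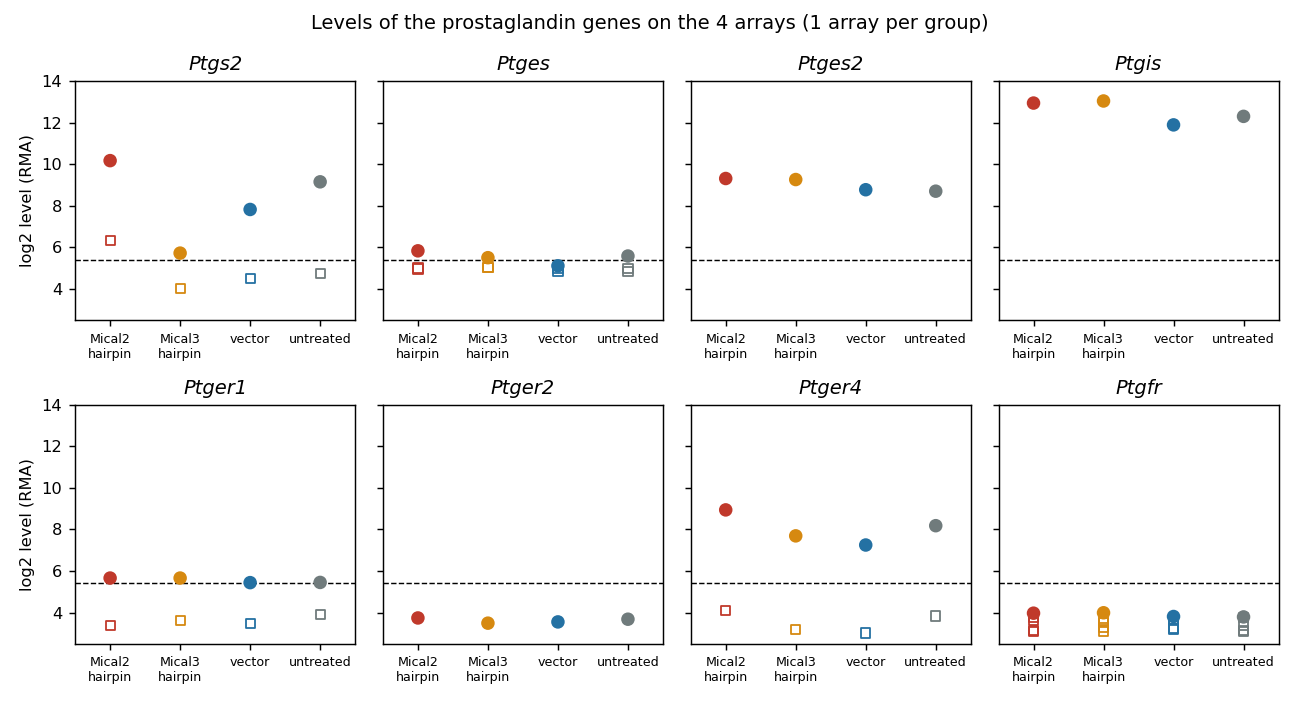
Log2 levels (RMA, y axis) of the 8 measured members on the 4 arrays (x axis, 1 array per group). Filled circles are the probe set with the highest mean, open squares the other probe sets, and the dashed line is the floor of 5.41. Ptgs2 runs from 5.72 to 10.17, Ptger4 from 7.25 to 8.94 and Ptgis from 11.89 to 13.04, while Ptger2 and Ptgfr stay below the floor on every array.

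Among the terminal synthases, Ptgis had the widest range. Ptgis encodes prostacyclin synthase, which makes the main prostaglandin of vessel walls. Its single probe set read 12.94 on the array labelled Mical2, 13.04 on that labelled Mical3, 11.89 in vector cells and 12.30 in untreated cells. Both hairpin arrays were high and the vector array was the lowest. The differences from vector cells, 1.05 and 1.15, were past 2-fold, and those from untreated cells, 0.64 and 0.74, were not, so Ptgis was not called on either array. Higher than both controls by at least as much were 271 of 12072 genes for the array labelled Mical2 (2.24%) and 332 of 12011 for that labelled Mical3 (2.76%).

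Ptges2 encodes a membrane-associated prostaglandin E synthase. It read 9.31 and 9.26 on the arrays labelled Mical2 and Mical3, against 8.77 in vector cells and 8.70 in untreated cells. The controls differed by 0.07 and the hairpin arrays by 0.05, and each hairpin array lay above each control by 0.49 to 0.61. That is under 2-fold and above the 0.25 to 0.38 between probe sets. The standard deviation over all tested genes was 0.49 to 0.74 for the same differences. At least as far above both controls were 367 of 12072 genes for the array labelled Mical2 (3.04%) and 792 of 12011 for that labelled Mical3 (6.59%).

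Ptges encodes the inducible microsomal prostaglandin E synthase, which is often induced together with Ptgs2 in inflamed tissue. By its brightest probe set Ptges read 5.83 on the array labelled Mical2, 5.50 on that labelled Mical3, 5.11 in vector cells and 5.58 in untreated cells, a range of 0.72 close to the floor. The other 2 probe sets stayed below the floor, with ranges of 0.05 and 0.21. Ptges was called in none of the 4 comparisons, and its difference between the hairpin arrays was 0.33, where that of Ptgs2 was 4.45.

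Ptges3 encodes a small cochaperone of Hsp90 that has also been described as a cytosolic prostaglandin E synthase. Both probe sets that carry its name carry that of the pseudogene Ptges3-ps as well, and the signals cannot be divided between the 2. They read 13.29 and 13.38 on the array labelled Mical2, 12.99 and 13.09 on that labelled Mical3, 13.07 and 12.97 in vector cells and 13.16 and 13.33 in untreated cells. Their ranges of 0.30 and 0.41 were the size of the spread between probe sets.

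Of the receptors, Ptger4 varied most. It encodes the EP4 receptor for prostaglandin E2, which raises cyclic AMP. By its main probe set Ptger4 stood at 8.94 on the array labelled Mical2, 7.69 on that labelled Mical3, 7.25 in vector cells and 8.18 in untreated cells. The array labelled Mical2 was highest and the vector array lowest. The second probe set, which stayed below the floor, read 4.09, 3.20, 3.02 and 3.83 and kept the same order.

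Between the hairpin arrays Ptger4 differed by 1.25, and 314 of 11928 genes were higher by at least as much (2.63%). From the vector array the array labelled Mical2 was higher by 1.69, a 3.23-fold level, but from untreated cells by only 0.76, so Ptger4 was not called against both controls. The array labelled Mical3 lay between the controls, 0.44 above the vector array and 0.49 below the untreated array. The vector array was below the untreated array by 0.93 on the log2 scale, just short of 2-fold.

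The other receptors were dim and flat. Ptger1 encodes the EP1 receptor, which raises calcium. By its brighter probe set it read 5.66 on both hairpin arrays, 5.44 in vector cells and 5.45 in untreated cells, just over the floor, and its other probe set lay between 3.39 and 3.89. Ptger2, the EP2 receptor gene, whose product also raises cyclic AMP, read 3.74, 3.49, 3.55 and 3.68 on the arrays labelled Mical2 and Mical3, the vector array and the untreated array. Ptgfr, the gene of the prostaglandin F receptor, had 5 probe sets and none above 3.99 on any array. Signals this low are not distinguished from background by these values, which hold no detection calls, and RMA compresses differences there.

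Over the 6 members that reached the floor, the median difference was 0.89 for the array labelled Mical2 from vector cells and 0.62 from untreated cells, with medians over all tested genes of -0.05 and -0.03. For the array labelled Mical3 the members' medians were 0.42 and 0.07, with -0.03 and 0.01 over all genes. For the vector from untreated cells it was -0.44, with 0.04 over all genes. The members were chosen with these data known, so these medians describe them and support nothing further.

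**Figure D2:**
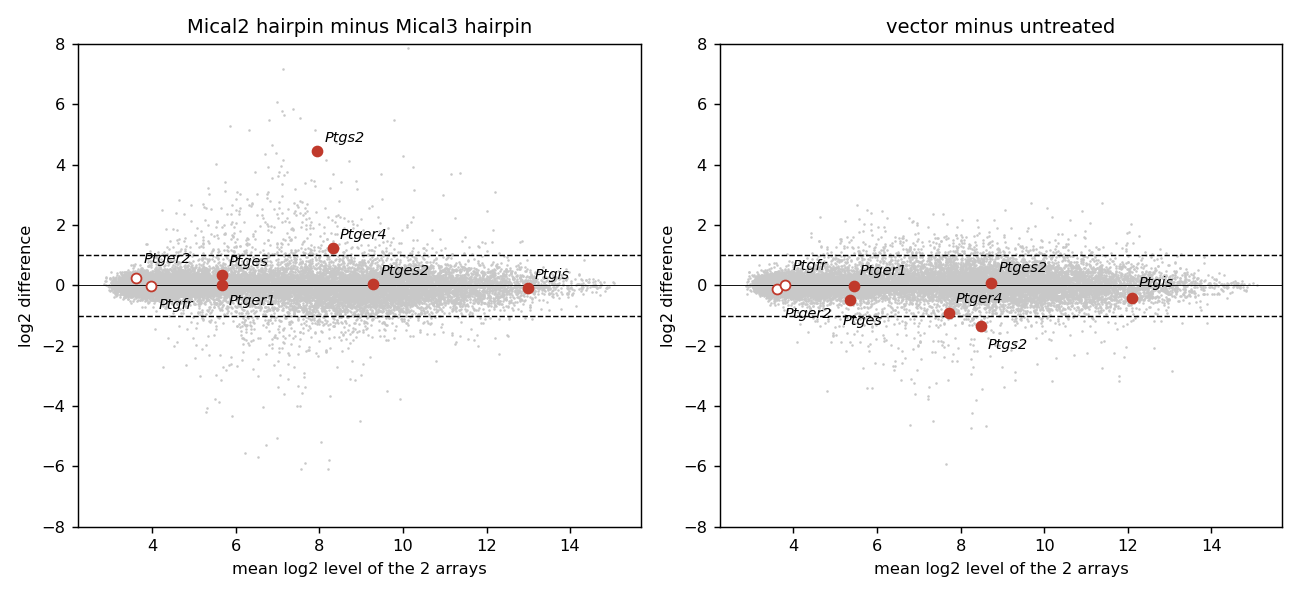
Log2 difference between 2 arrays (y axis) against their mean log2 level (x axis) for 18193 genes (grey), with the 8 measured members in red, filled where the gene reached the floor of 5.41 on some array. Dashed lines mark a difference of 1. Between the hairpin arrays (left) Ptgs2 lies at 4.45 and Ptger4 at 1.25, and between the vector and the untreated array (right) Ptgs2 lies at -1.33 and Ptger4 at -0.93.

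The 4 levels of each member with a range of at least 1 were compared with those of the 2312 other named genes with such a range. Each gene was centred on its own mean, and the root mean square difference over the 4 arrays was the measure of likeness. For Ptgs2 the nearest were Grem1, at 0.30, Ogn, at 0.30, and Nrep, at 0.37, and only 9 genes lay within 0.5. Grem1, for example, read 10.77, 6.03, 8.35 and 10.27 on the arrays labelled Mical2 and Mical3, the vector array and the untreated array.

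For Ptger4 the nearest were Tubb2a, at 0.06, Ppic and Lox, both at 0.09, with 281 genes within 0.5. For Ptgis they were Cep76, at 0.01, Rhob and St3gal1, both at 0.03, with 511 genes within 0.5. The measure grows with a gene's own range, which was 4.45 for Ptgs2 and under 2 for the others, so these counts are not comparable between members. With 4 arrays such likeness is a description, and no correlation was computed.

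**Figure D3:**
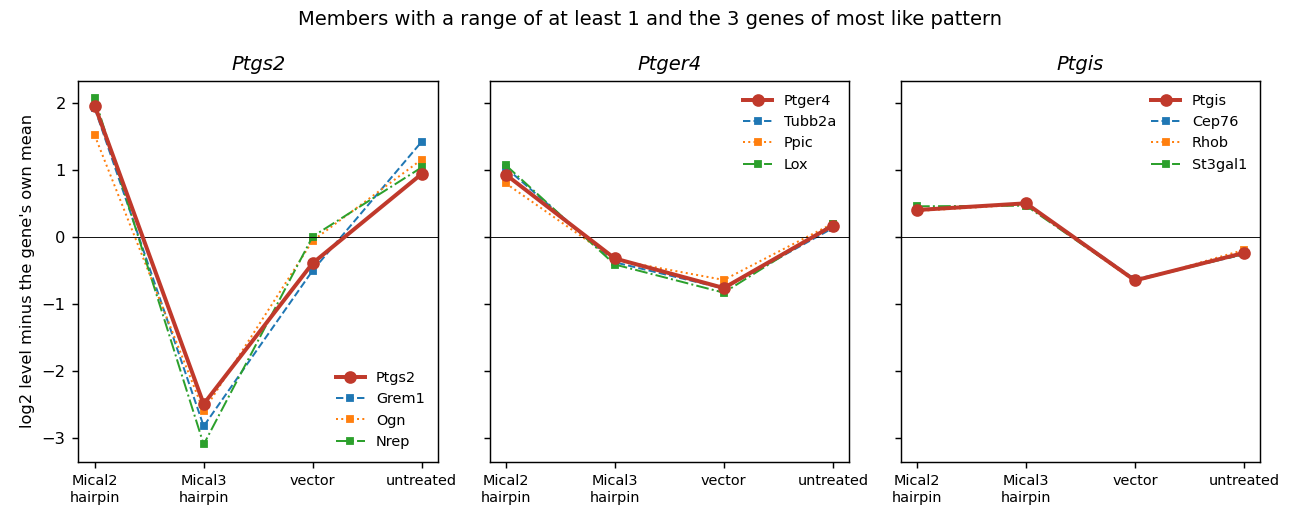
Log2 level minus the gene's own mean over the 4 arrays (y axis) for Ptgs2, Ptger4 and Ptgis (thick red line) and the 3 genes of most like pattern (thin lines), by array (x axis). Lines join the arrays only to guide the eye. Ptgs2 has its low point on the array labelled Mical3, Ptger4 and Ptgis theirs in vector cells.

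Some marker genes of other cell types moved with Ptgs2 and others did not. Of the 6 fibroblast markers that reached the floor, none was called against both controls on the array labelled Mical2 and 2 were called lower on that labelled Mical3. Between the hairpin arrays 4 were called higher on the array labelled Mical2 than on that labelled Mical3, none lower, and all 6 were lower in vector cells than in untreated cells. Of all genes, 2.49% were called lower on the array labelled Mical3, 3.81% higher between the hairpin arrays and 2.57% lower in vector cells. Pdgfra read 9.88, 7.07, 6.16 and 10.40 on the arrays labelled Mical2 and Mical3, the vector array and the untreated array. Pdgfrb read 10.71, 3.55, 8.13 and 10.28 in that order, with its low point on the array labelled Mical3, as for Ptgs2. Col1a2, at 14.06, 6.19, 11.64 and 14.49, and Postn, at 8.32, 5.22, 5.56 and 8.92, had theirs there too. Col1a1 was lowest in vector cells, at 12.15, 11.27, 10.95 and 12.99. Dcn read 12.27, 12.79, 10.52 and 12.36, and was highest on the array labelled Mical3, where Ptgs2 was lowest.

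The smooth muscle marker Acta2 was also highest there, at 14.49, with 13.80 under the Mical2 label, 11.61 in vector cells and 13.67 in untreated cells. Des and Cspg4 of the same list lay between 6.25 and 6.97 without a call, and Myh11, Cnn1 and Rgs5 stayed below the floor. The epithelial marker Krt18 was called higher on the array labelled Mical3, at 7.41. It read 6.63 under the Mical2 label, 4.84 in vector cells and 5.85 in untreated cells. Krt8 was called only as lower in vector cells, at 6.42 against 8.27 in untreated cells. Epcam was not called, at 6.60 to 7.10, and Cdh1, Krt19 and Cldn4 stayed below the floor. Flt4, a lymphatic endothelial marker, was called lower on both hairpin arrays, at 7.66 and 7.55 with 8.90 in vector and 9.18 in untreated cells. Pdpn, of the same list, was not called, at 11.67 to 12.50, and Lyve1, Prox1 and Reln stayed below the floor.

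Of 8 macrophage markers, Cd14 was called higher under the Mical2 label, at 8.26 with 6.39 on that labelled Mical3, 5.75 in vector cells and 7.04 in untreated cells. Cd68 ran differently, at 6.16 and 6.88 on the arrays labelled Mical2 and Mical3, and was called higher in vector cells, at 8.0 against 5.93 in untreated cells. Csf1r, at 6.51 to 6.84, and Lyz2, at 5.06 to 5.95, were not called. Ptprc, Adgre1, Itgam and Mrc1, which define leukocytes and macrophages, were below the floor on all 4 arrays. The summed macrophage signal lay between 8.56 and 9.22 in log2 units. The part of these genes in the Ptgs2 difference was not tested.

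Upstream of the cyclooxygenases, 21 genes that release or hold arachidonic acid were measured. On the array labelled Mical2, 1 was called higher and 1 lower of 18 tested, and on that labelled Mical3 none was called of 17. Of all genes, 2.73% and 3.87% were called on these arrays. Pla2g4a, the cytosolic phospholipase that feeds the cyclooxygenases and the protein-coding gene next to Ptgs2 in the RefSeq gene order, read 10.08 and 8.98 on the arrays labelled Mical2 and Mical3, 9.87 in vector cells and 9.79 in untreated cells. Its difference between the hairpin arrays, 1.1 by its only probe set, was called and had the direction of Ptgs2. Pdc, the next gene on the other side, was below the floor at 4.08 to 4.36.

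The other called genes of this list were lipases. Mgll, which frees arachidonic acid from 2-arachidonoylglycerol, was called higher under the Mical2 label, at 8.62, with 5.31 in vector cells and 7.11 in untreated cells, and was also called lower in vector than in untreated cells. On the array labelled Mical3 Mgll read 7.76, above both controls without a call. Daglb, a diacylglycerol lipase, was called lower on the array labelled Mical2, at 5.48, with 7.84 in vector and 7.35 in untreated cells. On the array labelled Mical3 Daglb read 7.03, below both controls without a call. Its relative Dagla read 6.94 on the array labelled Mical2, against 8.05 on that labelled Mical3. Pla2g2e, a secreted phospholipase, was called in the vector comparison, at 5.82 against 4.42 in untreated cells. Plaat3, Lpcat3 and Acsl4 were called in no comparison and lay between 9.02 and 10.68.

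Of the 7 other prostanoid synthase genes measured, 5 were tested and none was called in the 4 comparisons. Of all genes, 2.73% to 7.53% were called in these comparisons. Gstm2 lay between 9.82 and 11.25, Cbr1, a carbonyl reductase, between 8.66 and 9.54, and Tbxas1, thromboxane synthase, between 6.24 and 6.78. Of 5 other receptors 3 were tested, and Ptger3, the EP3 gene, whose product lowers cyclic AMP, was called. Between the hairpin arrays it was at 5.78 under the Mical2 label against 3.37 under the Mical3 label, and between the controls at 5.78 in vector cells against 3.51 in untreated cells. Its other probe set lay between 3.59 and 3.76 throughout. Tbxa2r, the thromboxane receptor gene, lay between 6.47 and 6.59, and Ptgdr, a prostaglandin D2 receptor gene, between 5.59 and 5.91.

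Of 6 measured genes of transport and breakdown, Akr1c18, an aldo-keto reductase known in mice for progesterone breakdown, was called higher under the Mical2 label, at 7.0 against 5.97 in each control. On the array labelled Mical3 Akr1c18 read 6.41, above both controls without a call. Abcc4, a transporter that exports prostaglandins, read 8.74 and 8.48 on the arrays labelled Mical2 and Mical3, 8.27 in vector cells and 8.12 in untreated cells, and was not called, nor were the reductase genes Ptgr1 and Ptgr2. Of the 14 measured genes on the lipoxygenase and leukotriene list 6 were tested. None of the lipoxygenases was called, and the only called gene was Ephx1, a microsomal epoxide hydrolase. It read 11.23 on the array labelled Mical2 against 9.14 on that labelled Mical3, and 10.90 in vector against 9.76 in untreated cells. Alox5, which starts leukotriene synthesis, lay between 5.56 and 5.75, Alox5ap, its partner, between 5.64 and 6.11, and Lta4h between 10.13 and 10.84.

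Of 15 measured cytokines and receptors that act upstream of Ptgs2, Il1r1, the receptor of interleukin 1, was called lower on the array labelled Mical3, at 6.97 with 8.32 in vector and 8.10 in untreated cells, and stood at 9.01 on that labelled Mical2. Tlr2, a receptor of bacterial lipopeptides, was called higher under the Mical2 label, at 7.0 with 5.26 in vector and 5.92 in untreated cells. Tlr3, a receptor of double-stranded RNA, was called lower there, at 6.39 with 8.65 and 7.50. Its other probe set, at 6.22 with 7.13 and 6.43, differed by less than 2-fold from each control. Tnfrsf1b, a receptor of tumour necrosis factor, was called between the hairpin arrays, at 8.61 on that labelled Mical2 and 7.34 on that labelled Mical3. The other Tnfrsf1b probe set read 6.51 and 6.40 on those arrays, which is less than 2-fold.

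Between the controls, Il6, a cytokine, was called lower at 6.71 in vector against 8.68 in untreated cells, and Tlr4, the receptor of lipopolysaccharide, higher at 8.79 against 7.55. Tlr3 was also called higher in vector cells, at 8.65 against 7.50, so its call on the array labelled Mical2 includes a raised vector level. The next brightest Tlr4 and Tlr3 probe sets, at 6.87 against 6.14 and 7.13 against 6.43, differed by less than 2-fold. The cytokine gene Il1b lay between 5.16 and 5.70, and Il1rap and Il6ra were called in no comparison by their main probe sets. Another Il1rap probe set read 6.73 and 6.64 on the arrays labelled Mical2 and Mical3, with 4.89 in vector and 5.15 in untreated cells. By that probe set both hairpin arrays lay more than 2-fold above each control.

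Among 17 transcription factors known to act on Ptgs2, 16 were tested. Fos, a subunit of AP-1, was called higher on both hairpin arrays, at 10.40 on that labelled Mical2 and 10.01 on that labelled Mical3, with 8.71 in vector and 8.67 in untreated cells. Its relative Fosl1 was called higher under the Mical2 label, at 8.97 with 7.54 and 7.38. On the array labelled Mical3 Fosl1 read 8.23, also above both controls, without a call. Rela, a subunit of NF-kB, was called lower on the array labelled Mical2 than on that labelled Mical3, by 1.0, which is opposite in sign to Ptgs2. That difference lies at the threshold, and the list had 0 calls between the hairpin arrays after a second quantile normalization, after loess or with 16 added on the linear scale. Egr1, Cebpd and Relb were called in no comparison.

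Among 9 factors that bind the Ptgs2 message or act on its decay, Celf2 was called, at 9.44 on the array labelled Mical2 against 10.70 on that labelled Mical3. CELF2 is known to bind the Ptgs2 message and to restrain its translation. Zfp36l1, a decay factor, read 10.79 and 10.10 on those arrays, and Hnrnpd and Tia1 were likewise not called.

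Downstream of the receptors, 16 genes that cyclic AMP can induce were measured, and on the array labelled Mical2 none of the 15 tested was called against both controls. As 2.73% of all genes were called there, a count of 0 in a list this small says little. With the vector as the only control 5 were called, where 10.7% of all genes were. Dusp1, a phosphatase of MAP kinases, was called higher on the array labelled Mical3, at 12.21 with 8.92 in vector and 9.57 in untreated cells, and stood at 10.32 on that labelled Mical2. Rgs2, a brake on Gq signalling, was called lower on the array labelled Mical3, at 5.13 with 8.76 and 6.38. Between the controls Rgs2 was called higher in vector cells, as were Ppargc1a, a coactivator, at 6.84 against 4.19 in untreated cells, and Pde4d, which breaks down cyclic AMP, at 7.59 against 6.38. Ereg, Vegfa and Per1 were not called.

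With 2.49% of all genes called lower on the array labelled Mical3, 3 of 18 G proteins and effectors were called lower there. They were Adcy7, an adenylyl cyclase (8.97, with 11.89 in vector and 10.69 in untreated cells), Prkar2b, a regulatory subunit of protein kinase A (7.07, with 8.65 and 8.94), and Plcb1, a phospholipase C (5.56, with 8.69 and 7.12). Relative to the array labelled Mical3, all 3 were called higher on that labelled Mical2, where Adcy7 read 10.22, Prkar2b 9.34 and Plcb1 6.96. Adcy7 and Plcb1 were there below both controls, without a call. In vector cells Adcy7, Plcb1 and the cyclase gene Adcy9 (8.77 against 7.73) were called higher than in untreated cells. The other Adcy9 probe sets, the brightest at 7.82 against 6.91, differed by less than 2-fold. Arrb1, Arrb2 and Plcb4 were called in no comparison.

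**Figure D4:**
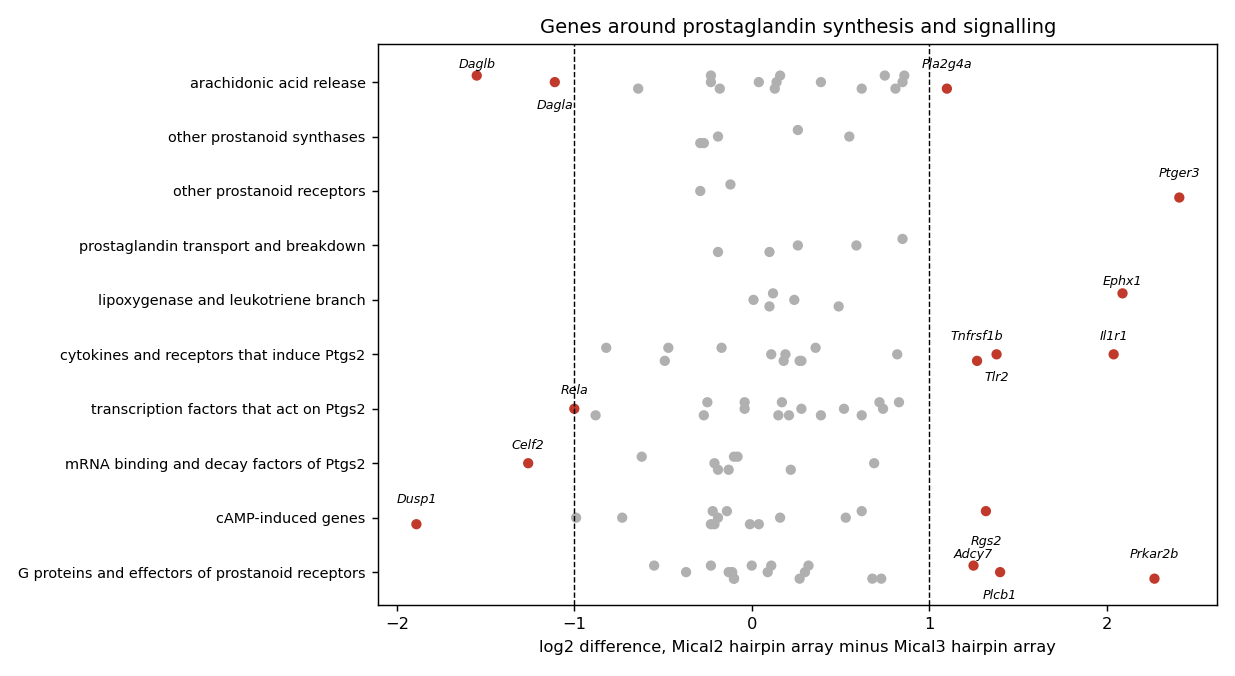
Log2 difference of the array labelled Mical2 from the array labelled Mical3 (x axis) for each gene of the 10 surrounding lists (y axis) that reached the floor on 1 of these arrays. Red points with names differ by at least 1 (dashed lines). Ptger3, Prkar2b, Ephx1 and Il1r1 lie farthest to the right and Dusp1 farthest to the left.

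Over the 10 lists together, 128 genes were measured. On the array labelled Mical2, 5 of 109 tested were called higher and 2 lower (6.42%), against 2.73% of all genes. On the array labelled Mical3 it was 2 higher and 5 lower of 108 (6.48%), against 3.87%. The vector array had 11 higher and 2 lower of 108 (12%), against 5.83%, and between the hairpin arrays 10 were higher on that labelled Mical2 and 5 lower of 107 (14%), against 7.53%. The median difference between the hairpin arrays ran from -0.19, for the other synthases, to 0.26, for transport and breakdown, over the 10 lists, with -0.02 over all genes. For the array labelled Mical2 the list medians lay between -0.36 and 0.24 from vector and between -0.13 and 0.21 from untreated cells. For the array labelled Mical3 they lay between -0.32 and 0.29 and between -0.25 and 0.31. The lists were written with earlier results of these data known.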

How the data were processed

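The deposited values are log2 expression levels of 45101 probe sets on 4 arrays. The authors made them with RMA, per the submitters' processing notes, and no version is given in the sources used here. Groups came from the sample titles. No further scaling was applied, and array medians lay between 5.40 and 5.44. Of the probe sets, 34945 have 1 symbol in the platform annotation, and symbols were updated through a RefSeq gene table of GRCm38.p6 (34741 matched). The floor, the size rule and the way 1 probe set stands for a gene are given above. With 1 array per group no test was run. The members, lists and rules were chosen with earlier results of these data known. All members are named, with every called gene of a pathway list, up to 3 others of widest range per list, and the 3 genes of most like pattern; some cell type markers and the neighbours of Ptgs2 were named after their values were seen. The rule was tried on simulated data. Alternatives were a single control, folds of 1.5 and 3, no floor or the 75th percentile, the mean or most variable probe set, dropping _s_at, _x_at and _a_at probe sets, a second quantile normalization, loess on the level, and 16 added on the linear scale. Python 3.11.15 was used with numpy 2.4.6, pandas 2.3.3, statsmodels 0.14.6 and, for figures, matplotlib 3.10.9.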

Additional observations from a re-analysis of the deposited data

How the results depend on the processing

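The count of called members rested on the control and the fold. With the vector as the only control, 3 members were called on the array labelled Mical2 (Ptgs2, Ptgis and Ptger4) and 2 on that labelled Mical3 (Ptgs2 lower, Ptgis higher). The shares of all tested genes called there rose as well, to 10.7% and 11.8%. At 1.5-fold the same counts of 3 and 2 held, with the same genes, and 2 members were called for the vector against the untreated array (Ptgs2 and Ptger4, also under loess). Of all tested genes, 8.11%, 11% and 17.6% were called in these 3 comparisons at 1.5-fold, and 5.69% for the vector under loess. At 3-fold none was called on the array labelled Mical2 (0) or on the vector array (0), and 1, Ptgs2, between the hairpin arrays. The shares of all tested genes were then 0.928%, 1.65% and 3.14%. With 16 added on the linear scale Ptgs2 fell just short of 2-fold against the untreated array, leaving 0 called on the array labelled Mical2, and the mean of probe sets left 0 on the vector array. The other 33 of 44 recomputed counts were within 1.5 times, and no called difference of a member changed sign. Of 440 recomputed list counts, 97 moved by more. Without _s_at, _x_at and _a_at probe sets, the lists of other receptors (Ptger3), message-binding factors (Celf2) and transcription factors (Rela) had 0 calls between the hairpin arrays, and the release list (Mgll and Daglb) 1 in place of 2 on the array labelled Mical2. Between the hairpin arrays the release list then had 2 calls in place of 3, as the only Pla2g4a probe set is of the _a_at kind. With 16 added, the transport list (Akr1c18) and the cytokine list (Tlr2 and Tlr3) had 0 on the array labelled Mical2. The mean of probe sets gave Ptgs2 differences of -1.31 and -2.08 on the array labelled Mical3. Over all genes, the vector alone called 1286 and 1402 genes on the arrays labelled Mical2 and Mical3, against 329 and 465 by both controls. Those, with 691 for the vector comparison and 898 between the hairpin arrays, became 979, 1323, 2084 and 2287 at 1.5-fold, and 112, 163, 195 and 375 at 3-fold. The higher floor gave 206 in place of 329, 446 in place of 691 and 579 in place of 898, and the mean of probe sets 218 in place of 329. No paired analysis was possible because each group had 1 array.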
